A study of Macaca fascicularis with 9 samples.

Results

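Cluster 5 is 1 of the 7 clusters that the deposited annotation names oligodendrocytes in single-nucleus RNA sequencing of the monkey thalamus. Its members are the nuclei that carry both the cell type name Oligodendrocytes and the cluster number 5 in that annotation. They number 4860 of 61578 oligodendrocyte nuclei, or 7.89%, and of 79994 nuclei in all 17 clusters. The study followed 9 female cynomolgus monkeys, 3 in each of 3 groups, with 1 droplet library per animal. The ASO group received a single intrathecal dose of 4 mg of an antisense oligonucleotide against MALAT1. The OTV group received 4 intravenous doses, given biweekly, of OTV:MALAT1 at 30 mpk. The saline group received saline by the same intravenous schedule. Brain tissue was collected 2 weeks after the last dose in every group, and nuclei were sorted on DAPI, a DNA stain. The ASO and OTV groups differ in compound, route and number of doses at once, and no group received saline intrathecally, so these factors cannot be told apart.

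Oligodendrocytes are the glial cells that wrap axons in myelin, and a nucleus carries the transcripts its cell was making rather than the whole RNA of the cell. Mature oligodendrocytes are not uniform: brain surveys commonly describe a type rich in OPALIN, a membrane protein of myelin, and a type rich in RBFOX1, a splicing factor. MALAT1 is a noncoding RNA that is retained in nuclei and is abundant in nearly every cell, which makes it a convenient readout of antisense activity. An antisense oligonucleotide pairs with its target RNA and recruits RNase H, a nuclease that cuts the RNA strand of the duplex. OTV stands for oligonucleotide transport vehicle, a carrier that binds the transferrin receptor, through which it can pass from blood into brain.

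The 3 saline animals gave 810, 681 and 55 nuclei of cluster 5, the ASO animals 683, 1034 and 359, and the OTV animals 500, 238 and 500. The cluster held 9.40%, 7.72% and 5.12% of the oligodendrocyte nuclei of the saline animals. It held 7.004%, 9.75% and 5.07% in the ASO animals and 6.90%, 8.55% and 8.90% in the OTV animals, so the shares overlapped between all groups. Unique molecular identifiers (UMIs, 1 per captured RNA molecule) in the cluster totalled 6555599, 6423192 and 264430 in the saline animals. The totals were 6148975, 11443215 and 2178240 in the ASO animals and 5199948, 1902175 and 2798369 in the OTV animals. Saline replicate 3 stood apart, with the fewest nuclei and the lowest total, and leading counts are given with and without it. Cluster 5 nuclei were deeper than the other oligodendrocyte nuclei of the same animal, with a ratio of median UMIs of 1.34, 1.39 and 1.16 in saline, 1.49, 1.41 and 1.199 in ASO and 1.65, 1.501 and 1.95 in OTV animals. The median doublet score of cluster 5 nuclei, a measure of how far a barcode resembles 2 nuclei, was between 0.00321 and 0.00459 in OTV, 0.000484 and 0.00104 in ASO and 0.000702 and 0.00410 in saline animals. Both measures were higher in every OTV than in every ASO animal, and their part in the OTV responses was not tested. A barcode shared with another library occurred in 89 of the 4860 nuclei, or 1.83%, against 1.90% over all nuclei.

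The oligodendrocyte name was checked against marker genes. Of 12 listed oligodendrocyte markers 11 were measured, and all 11 were detected in cluster 5, among them MOG, MAG and MOBP, and MBP was not analysed here. Levels are given in CPM, the UMIs of a gene in the summed nuclei of an animal scaled to a common total, as is usual for such counts. The markers summed to 8159 ± 1483 CPM (SD, n = 9 animals) in cluster 5 and to 8454 ± 1446 CPM in the other oligodendrocyte nuclei. Markers of oligodendrocyte precursors, all 8 of them detected, summed to 274 ± 116 CPM, against 18724 CPM in the nuclei that the annotation names precursors. Astrocyte markers summed to 233 CPM, against 15594 CPM in astrocyte nuclei, and myeloid markers to 29.7 CPM, against 8722 CPM in myeloid nuclei. Neuron markers, 11 of 12 measured and all detected, summed to between 93.7 and 397 CPM in the saline animals, 78.1 and 163 CPM in the ASO animals and 75.04 and 109 CPM in the OTV animals. No measured marker of these lists was at 0 over all of cluster 5.

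Within each animal, cluster 5 was compared with all other oligodendrocyte nuclei of that animal. The clusters were made from these same genes, so the differences below are a description and carry no test. Of 8535 features with at least 10 CPM in either class, 31 were at least 2-fold higher in cluster 5 in every animal, which is 0.363%. A further 48, or 0.562%, were at least 2-fold lower in every animal. Without saline replicate 3 these counts were 47 and 71. Changes here are log2 ratios after adding 2 CPM to both levels, which understates the change of low genes. Set against the unweighted mean of the other oligodendrocyte clusters instead, 2 features passed in the higher direction and 36 in the lower, so the higher genes depend on how much each other cluster weighs.

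Of the 15 genes named for their excess in cluster 5 in every animal, RGS6, BCAT1 and THSD7A had the largest median ratios. RGS6, a regulator of G protein signalling, was at 134, 515 and 83.2 CPM in the cluster 5 nuclei of the saline animals, against 24.0, 95.7 and 9.93 CPM in their other oligodendrocyte nuclei. Its log2 ratio had a median of 2.25 over the 9 animals, between 1.72 and 2.84. The level of RGS6 differed more between animals than its ratio within an animal did.

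BCAT1, the cytosolic enzyme that moves the amino group of branched-chain amino acids, was at 160 ± 83.4 CPM against 35.5 ± 20.4 CPM (SD, n = 9), with a median log2 ratio of 2.18. THSD7A, a membrane protein with thrombospondin repeats, was at 1281 ± 481 CPM against 323 ± 177 CPM, and its median log2 ratio was 2.16. GSN encodes gelsolin, which severs actin filaments. GSN was at 728 ± 185 CPM against 216 ± 81.0 CPM, with a median log2 ratio of 1.71. The adhesion genes SDK2, an immunoglobulin-family cell surface protein, and SPON1, a secreted matrix protein, had median log2 ratios of 1.87 and 1.66. The other genes of the 15 leading higher ones were BCAR3 (a signalling adaptor), JADE3, KANK4, MCC, KCNK12 (a potassium channel subunit), PLEKHA6, GALNT18 (a glycosyltransferase), RELL1 and EFR3B. Their median log2 ratios ran from 1.51 for EFR3B to 1.95 for BCAR3.

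The 15 genes named as lower in cluster 5 had larger ratios, led by ERC2, CNTN1 and KANK1. Against cluster 3 alone, 15 of these 15 were lower in cluster 5 by their median ratio over animals. Against cluster 10 alone, 0 of them were. CNTN1 encodes contactin 1, an adhesion protein of axons and glia. It was at 39.7, 56.2 and 87.0 CPM in cluster 5 of the saline animals, 16.1, 11.9 and 29.8 CPM in the ASO animals and 91.0, 88.3 and 61.8 CPM in the OTV animals. In the sum over all other oligodendrocyte nuclei no animal was below 688 CPM for CNTN1, and the median log2 ratio was -4.08. CNTN1 was chosen for being lower in cluster 5 in every animal, so this gap is bound by that choice. The gap holds for the sum and not for each other cluster, as CNTN1 was not lower in cluster 5 than in cluster 10.

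ERC2, a scaffold of presynaptic active zones, was at 30.9 ± 27.4 CPM against 558 ± 210 CPM, with a median log2 ratio of -4.34. KANK1, a regulator of actin at cell adhesions, was at 8.93 CPM against 166 CPM, a median log2 ratio of -4.06. FRY, a large protein linked to cell shape, had a median log2 ratio of -3.76. The adhesion genes PCDH7, LRFN5 and CDH7 had median log2 ratios of -3.62, -3.61 and -3.43. The secreted factors NTN4, SFRP1 and NELL2 had values of -3.45, -3.05 and -2.64, and EYA1, a transcriptional coactivator, had -3.63. PRUNE2, MCAM, FCHSD2 and HIVEP1 completed the 15, between -2.82 for PRUNE2 and -2.08 for HIVEP1. Genes were ranked by their least change in any animal, which was 1.23 for EFR3B, the last gene on the higher list, and 1.23 for NOX4, the first gene off it. On the lower list the least change was -1.64 for FCHSD2 and -1.38 for TMEM51, the first gene off it.

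**Figure D1:**
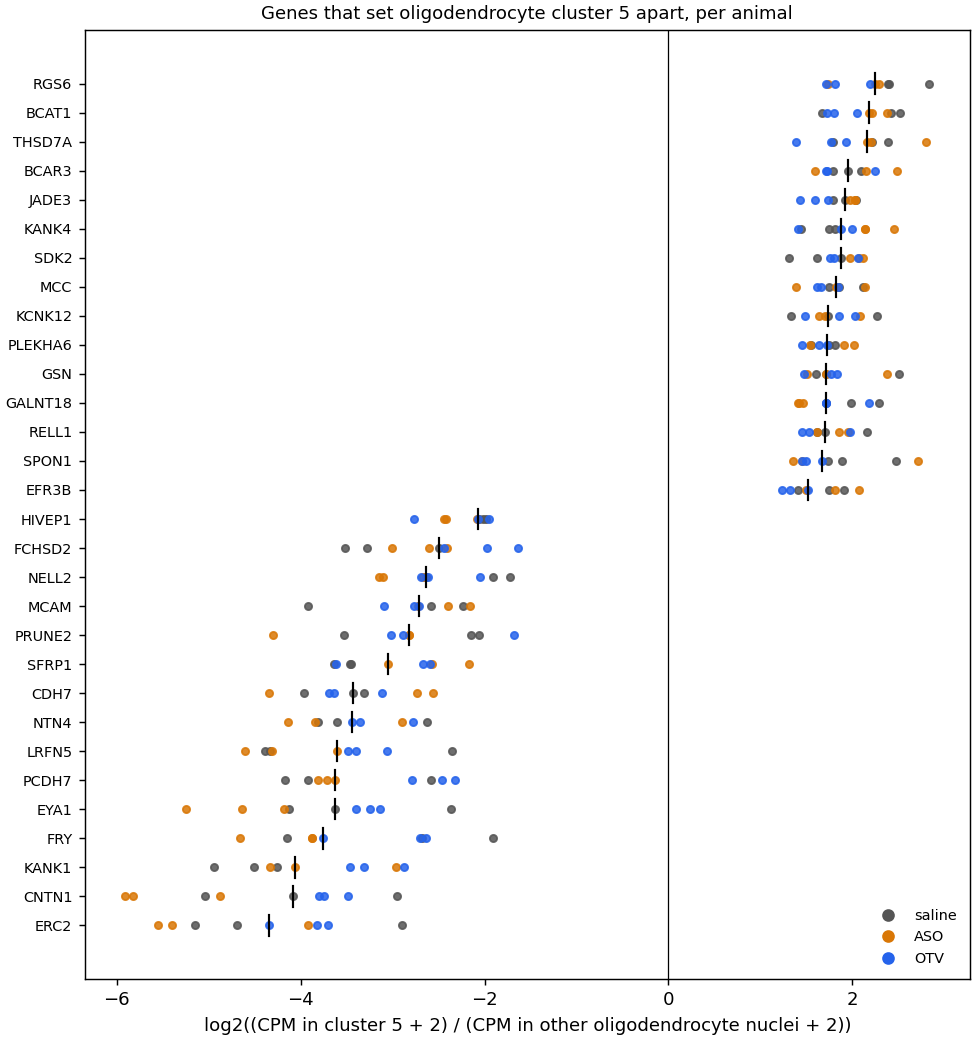
Log2 ratio of CPM in cluster 5 to CPM in the other oligodendrocyte nuclei of the same animal, after adding 2 CPM to both, for the 15 leading higher and 15 leading lower genes. Each point is 1 of 9 animals and the black tick is the median; every point of RGS6 lies between 1.72 and 2.84, and every point of ERC2 lies below -2.90 or on it.

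Myelin genes went both ways against the other oligodendrocyte nuclei. Of 18 myelin genes with at least 10 CPM, 3 were higher in every animal and 5 were lower in every animal, none by 2-fold in all, with a median log2 ratio of -0.01 beside 0.03 over all 8535 features. Over all features, 12.9% were higher and 8.86% lower in every animal. HAPLN2, a matrix link protein of the node of Ranvier, was higher with 0.69, and MOBP with 0.43. The glycoproteins MOG and MAG were slightly lower, with -0.15 and -0.17.

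Among genes of the OPALIN type, 4 of 6 were lower in every animal and 1 was higher, with a median log2 ratio of -1.18. The lower ones include CNTN1 and FRY, which are also among the 15 leading genes. OPALIN itself was at 197 ± 156 CPM in cluster 5 and 627 ± 213 CPM in the other nuclei, a median log2 ratio of -1.92. The list of the RBFOX1 type had 2 of 9 genes higher and 2 lower in every animal, with a median of 0.21. SGCZ, a sarcoglycan and a member of that list, had a median log2 ratio of 2.19, between 0.70 and 3.23. SLC5A11, a sugar alcohol transporter of the same list, had 0.33.

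ENPP6, a choline phosphodiesterase used as a marker of newly forming oligodendrocytes, was at 243 ± 46.8 CPM against 80.9 ± 20.9 CPM. Its median log2 ratio was 1.48 and no animal was below 1.18. The full list of differentiation markers did not follow ENPP6: of 7 genes at 10 CPM or more, 2 were higher and 2 lower in every animal, with a median of 0.00. Among 22 synaptic adhesion and receptor genes, 10 were lower and 2 higher in every animal, with a median of -0.27. NLGN1, a postsynaptic adhesion protein, had a median log2 ratio of -3.34. The summed neuron markers were also lower in cluster 5 than in the other oligodendrocyte nuclei in all 9 animals, as were the summed precursor markers (a mean of 274 against 366 CPM), and the part of either in these lower values was not tested. No gene of the cholesterol synthesis list was higher or lower in every animal (0 of 16 in each direction).

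Cluster 5 lay between clusters 3 and 10 rather than apart from them. Of 8535 features, 0 had their highest level of the 7 clusters in cluster 5 in every animal, and 0 had their lowest. Clusters with fewer than 20 nuclei in an animal were left out there, which were cluster 10 in saline replicate 3 and cluster 8 in OTV replicate 3. Against cluster 3 alone, 2 features were at least 2-fold higher and 0 lower in every animal. Against cluster 10 the counts were 3 and 2 over 8 animals, as saline replicate 3 had only 9 nuclei of it. Against cluster 1 the counts were 75 and 76 over all 9 animals. The correlation of log CPM across genes, within an animal, had a median of 0.987 with cluster 3 and 0.985 with cluster 10, and of 0.918 with cluster 1. Genes are not independent replicates, and these correlations are given as a description.

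Each nucleus was thinned to 1000 UMIs, the 15 higher genes were summed in it, and the sums were averaged per animal. The sum was 0.362 in cluster 1, 0.407 in cluster 2, 0.966 in cluster 0 and 1.10 in cluster 8. It was 2.71 ± 0.879 in cluster 3, 4.70 ± 1.18 in cluster 5 and 6.94 ± 1.02 in cluster 10 (SD, n = 9, 9 and 8 animals). The 15 lower genes ran the opposite way, with 6.81 in cluster 1, 0.789 in cluster 3, 0.379 in cluster 5 and 0.229 in cluster 10. In cluster 5, 71.2% of the thinned nuclei had no UMI of the 15 lower genes, against 53.6% in cluster 3, 81.5% in cluster 10 and 0.753% in cluster 1. Before thinning, median UMIs per nucleus were 7066 in cluster 3, 8602 in cluster 5 and 11308 in cluster 10. The shares hold for an equal 1000 UMIs per nucleus and not for whole nuclei, which hold more UMIs. Any other part of depth was not tested.

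**Figure D2:**
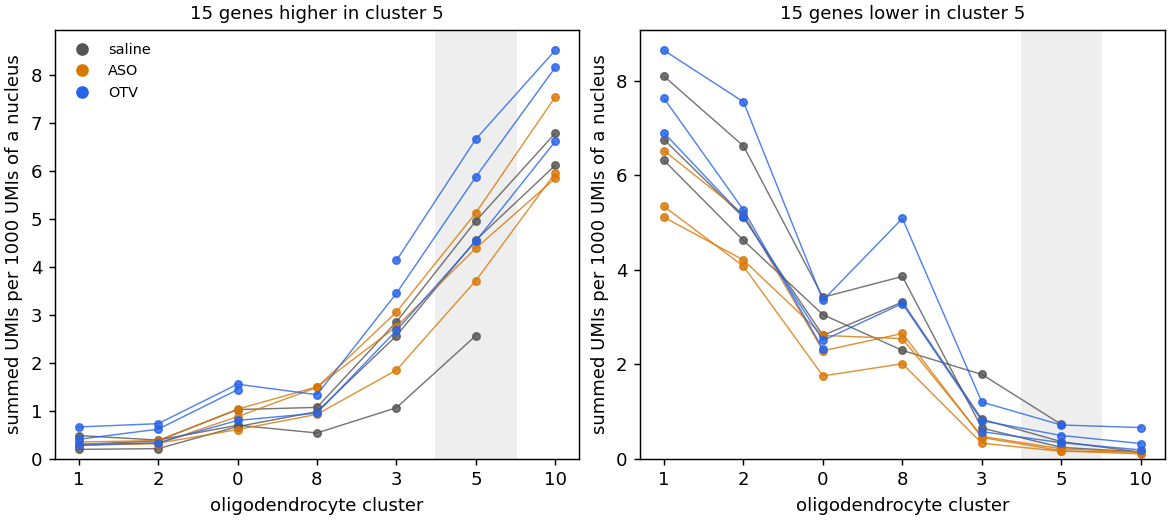
Summed UMIs of the 15 higher genes (left) and 15 lower genes (right) in nuclei thinned to 1000 UMIs, averaged per animal, in each oligodendrocyte cluster. Each line is 1 animal and the grey band marks cluster 5, whose mean of 4.70 for the higher genes lies between 2.71 in cluster 3 and 6.94 in cluster 10.

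The deposited annotation also holds coarser clusterings of the same nuclei. At the coarsest resolution all 4860 nuclei of cluster 5 shared 1 cluster with all 1919 of cluster 10 and 7177 of the 7209 of cluster 3. At the middle resolution cluster 5 was divided, with 2153 nuclei joining those of cluster 10 and 2707 joining nuclei of cluster 3. The nuclei that joined cluster 10 had a sum of the 15 higher genes of 5.28 ± 1.35 and of the lower genes of 0.320 ± 0.190. Those that joined cluster 3 had 4.23 ± 1.10 and 0.423 ± 0.258 (SD, n = 9 animals). The coarser clusters and the 15 genes come from the same counts, so the difference between these nuclei is a description. Before thinning, median UMIs were 9101 in the nuclei that joined cluster 10 and 8251 in those that joined cluster 3. Saline replicate 3 had the lowest average sum of the higher genes in cluster 5, 2.56 against 3.71 to 6.66 in the other animals.

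MALAT1, the RNA both compounds target, was lower in cluster 5 of every treated animal than of any saline animal. It made up 6.03%, 6.02% and 6.21% of the cluster's UMIs in the saline animals. The shares were 4.90%, 4.31% and 5.36% in the ASO animals and 4.02%, 3.41% and 2.77% in the OTV animals. The 3 groups did not overlap, and every Wilson 95% interval, which covers counting error only, had a half-width of at most 0.0920 percentage points. The means were 6.09 ± 0.107%, 4.86 ± 0.524% and 3.40 ± 0.626% (SD, n = 3 animals), so the ASO group held 79.8% and the OTV group 55.9% of the saline share. Permuting the animals over the 3 groups, in an exact two-sided permutation test, gave p = 0.00357, the smallest value that the 280 partitions of 9 animals allow. Each pair of groups gave an exact p of 0.1, the smallest that 10 splits allow.

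In the fit across all genes, MALAT1 fell by 0.76 on the log2 scale with OTV (SE 0.14, adjusted p = 0.00427, Benjamini-Hochberg over edgeR's quasi-likelihood p values). ASO against saline gave -0.36 (SE 0.14), which did not pass (adjusted p = 0.427). OTV against ASO gave -0.40 (SE 0.14, adjusted p = 0.0583), a value that passed the threshold with DESeq2 size factors, with no filter on low counts, with sums thinned to equal totals and without OTV replicate 1. Thinned to 1000 UMIs per nucleus, the median nucleus held between 59 and 62 MALAT1 UMIs in the saline animals, 43 and 54 in the ASO animals and 27 and 39 in the OTV animals. The spread between nuclei was widest in ASO replicate 1, where the 10th percentile was 24 UMIs and the 90th was 70.

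No difference between the MALAT1 response of cluster 5 and that of the other oligodendrocyte nuclei passed the test. The other nuclei held 6.47%, 6.96% and 6.50% of UMIs as MALAT1 in the saline animals, 4.71%, 4.204% and 5.74% in the ASO animals and 3.94%, 3.47% and 3.07% in the OTV animals. The log2 ratio of the cluster 5 share to the other share averaged -0.13, -0.00 and -0.05 in the 3 groups, and an exact permutation test gave p = 0.261. In the interaction fit the difference between the responses was 0.15 for ASO against saline (SE 0.06, adjusted p = 0.715) and 0.12 for OTV against saline (SE 0.06, adjusted p = 0.888). TFRC, the transferrin receptor, was at 9.61, 9.34 and 15.1 CPM in saline, 9.92, 14.3 and 11.9 CPM in ASO and 12.9, 11.6 and 13.2 CPM in OTV animals, and no contrast passed the test. The same held for LTBP3, a gene of a matrix protein near MALAT1 in the genome.

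**Figure D3:**
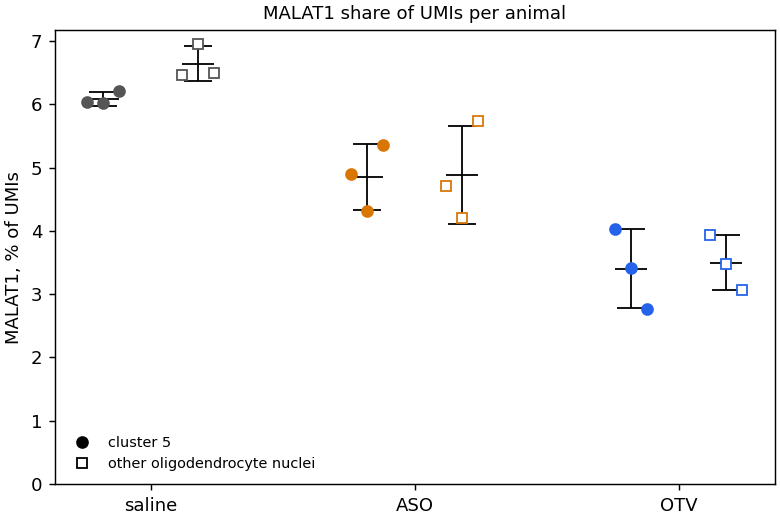
MALAT1 as a percentage of all UMIs in cluster 5 (filled) and in the other oligodendrocyte nuclei (open) of each animal, with the group mean and SD. The cluster 5 values lie at 6.02 to 6.21% in saline, 4.31 to 5.36% in ASO and 2.77 to 4.02% in OTV animals.

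Of 13558 features tested in cluster 5, 14 rose and 31 fell with the intrathecal ASO against saline, together 0.332% (0.103% higher, 0.229% lower), and 1299 had an unadjusted p under 0.05. DESeq2's Wald test called 182, edgeR with no filter on low counts 119 and edgeR on sums thinned to equal totals 19. Without saline replicate 3 the count was 48. The count was lower without some animals, whose groups were then smaller: it was 10 without ASO replicate 1, 25 without ASO replicate 2, 29 without saline replicate 1 and 23 without saline replicate 2. The animals of the 2 groups did not overlap in 16.6% of all features tested.

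GIPR, the receptor of the gut hormone GIP, was at 0.763, 0.934 and 0 CPM in the saline animals, 26.8, 21.3 and 17.0 CPM in the ASO animals and 0.962, 0.526 and 0.715 CPM in the OTV animals. All ASO animals were high and all others were near 0. Its log2 fold change with ASO was 4.65 (SE 0.39, adjusted p = 0.000526), and the call held in every alternative that tested it and without any 1 animal.

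ROBO1 encodes a receptor for Slit guidance cues. ROBO1 was at 182, 290 and 314 CPM in saline, 64.2, 61.2 and 54.6 CPM in ASO and 167, 286 and 221 CPM in OTV animals. The ASO animals lay below all others, and ROBO1 fell by 2.12 on the log2 scale (SE 0.23, adjusted p = 0.00269). FSTL1, a secreted glycoprotein, was at 9.00, 8.56 and 7.56 CPM in saline and at 0, 0.0874 and 0.459 CPM in ASO animals. FSTL1 had 116 UMIs in the saline group and 2 in the ASO group, a ratio of 86.6 with a 95% counting interval from 23.4 to 723. In the OTV animals FSTL1 was at 47.7, 21.0 and 23.2 CPM, above both other groups.

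BAIAP2, an adaptor that shapes the membrane over actin, was at 212, 168 and 159 CPM in saline, 64.1, 44.8 and 63.8 CPM in ASO and 48.1, 38.9 and 32.2 CPM in OTV animals. Both treated groups lay below saline. BAIAP2 fell by 1.71 with ASO (SE 0.20, adjusted p = 0.00423) and by 2.11 with OTV (SE 0.21, adjusted p = 0.000159) on the log2 scale. The calls of ROBO1, FSTL1 and BAIAP2 in ASO held in every alternative that tested them, and FSTL1 was not tested in thinned sums.

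Other calls with ASO were lost when 1 animal was left out. Leaving out an animal also makes its group smaller, so a lost call does not show that this animal carried the change. CFAP43, a protein of motile cilia, was at 79.2, 80.6 and 117 CPM in saline and 34.5, 39.3 and 36.3 CPM in ASO animals, a log2 fold change of -1.27 (adjusted p = 0.00832) whose call was lost without ASO replicate 1 and in thinned sums. TUSC3, a subunit of the oligosaccharyltransferase complex, fell by 2.19 (adjusted p = 0.0203), and ATP2A1, a calcium pump, fell by 3.42 (adjusted p = 0.00972). The TUSC3 call was lost without saline replicate 2 or ASO replicate 1, and the ATP2A1 call without saline replicate 1 or ASO replicate 1. ATP2A1 overlaps RABEP2 in the RefSeq annotation, and the sources used here do not say whether reads were counted by strand.

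Among higher genes, CD274, the immune checkpoint ligand PD-L1, was at 6.86, 9.34 and 11.3 CPM in saline and 30.1, 22.6 and 49.6 CPM in ASO animals. Its log2 fold change was 1.95 (adjusted p = 0.0314), and it was at 9.81, 10.5 and 10.0 CPM in OTV animals. CD274 overlaps PLGRKT. ZNF395, a zinc finger protein, had a log2 fold change of 1.39 (adjusted p = 0.0328) and KIF6, a kinesin motor, one of 0.78 (adjusted p = 0.0420). RIMBP2, a presynaptic scaffold, and PIWIL1, a small RNA binding protein, overlap each other in the RefSeq annotation, so reads could be split between them. They had log2 fold changes of 3.17 (adjusted p = 0.0259) and 3.33 (adjusted p = 0.0371). ZBTB46, a transcription factor, had 1.80 (adjusted p = 0.0321). LPAR3, a lysophosphatidic acid receptor, had 1 UMI in the saline group and 86 in the ASO group, a ratio of 57.6 with a 95% counting interval from 10.1 to 2301. The calls of these 7 genes were lost without ASO replicate 1 and without either of saline replicates 1 and 2. All but CD274 were lost without ASO replicate 2, those of ZNF395, PIWIL1 and KIF6 also without ASO replicate 3, and that of KIF6 also without OTV replicate 3 and in thinned sums. In a fit of the 6 compared animals alone, without the OTV group, the calls of CD274 and KIF6 were lost.

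Many more features passed the test in the OTV contrasts than with ASO against saline, and this difference in number was not tested. Against saline 645 features rose and 1001 fell, together 12.1% (4.76% higher, 7.38% lower), and against ASO 1194 rose and 1611 fell, together 20.7% (8.81% higher, 11.9% lower). Both contrasts use the OTV animals, and the first shares the saline animals with the ASO contrast. Without saline replicate 3 the counts were 1647 and 3073. The count against saline was 946 without saline replicate 1, 875 without saline replicate 2 and 1024 without OTV replicate 3, and 255 when sums were thinned to the smallest total. That against ASO was 1844 without OTV replicate 3 and 417 in thinned sums. In these contrasts the animals of the 2 groups did not overlap in 27.6% and 39.5% of features.

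The named genes that rose with OTV were led by MYO9B, ADAP1 and IQSEC1 by adjusted p. MYO9B, an unconventional myosin, was at 192, 169 and 193 CPM in saline, 201, 211 and 224 CPM in ASO and 317, 382 and 400 CPM in OTV animals. The OTV animals lay above all others, and MYO9B rose by 1.07 on the log2 scale (SE 0.13, adjusted p = 0.000431). ADAP1, which acts on Arf GTPases, was at 217, 189 and 234 CPM in saline and 433, 432 and 378 CPM in OTV animals, a rise of 1.05 (SE 0.13, adjusted p = 0.000634). IQSEC1, an Arf exchange factor, rose by 1.33, and RAPGEF3, the cAMP sensor EPAC1, by 1.54. HID1, TMEM259 and LENG8 completed the named nuclear genes, with rises of 1.46, 1.22 and 1.04. RAPGEF3 overlaps SLC48A1 and TMEM259 overlaps GRIN3B in the RefSeq annotation. The LENG8 call was lost in thinned sums.

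Among the named genes that fell with OTV, GOLT1B and RASGRP1 had the lowest adjusted p. GOLT1B, a Golgi transport protein, was at 74.9, 62.6 and 75.6 CPM in saline, 84.7, 59.7 and 83.1 CPM in ASO and 14.8, 14.7 and 16.1 CPM in OTV animals. The OTV animals were low without exception, and GOLT1B fell by 2.13 on the log2 scale (SE 0.18, adjusted p = 0.000101). RASGRP1, a Ras exchange factor, was at 112, 99.8 and 129 CPM in saline and 29.0, 28.9 and 31.4 CPM in OTV animals, a fall of 1.82 (SE 0.15, adjusted p = 0.000101). RASGRP1 overlaps FAM98B in the RefSeq annotation, and whether reads in the shared stretch were told apart by strand is not given.

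PIGH, an enzyme subunit that starts the GPI membrane anchor, was at 469, 529 and 571 CPM in saline, 645, 457 and 741 CPM in ASO and 107, 111 and 70.4 CPM in OTV animals. PIGH fell by 2.36 with OTV (SE 0.21, adjusted p = 0.000105). PLEKHH1, a pleckstrin homology domain protein whose gene overlaps PIGH in the RefSeq annotation, went the opposite way. It was at 795, 818 and 790 CPM in saline and 1272, 1322 and 1290 CPM in OTV animals, a rise of 0.77 (adjusted p = 0.000738). FGL1, PIH1D2, TMEM243 and MCMDC2 fell by 2.62, 2.48, 2.51 and 2.12, and TMEM243 overlaps DMTF1. Apart from LENG8, the named nuclear genes of this contrast kept their calls in every alternative that tested them. The named genes that were lower in OTV than in ASO animals were RASGRP1, PIH1D2, GOLT1B, PIGH, FGL1, GIPR, GAD1 and RNF121. GIPR, high in the ASO animals alone, was at 0.962, 0.526 and 0.715 CPM in OTV animals, near its saline level. GAD1, which makes GABA and is a neuron marker, was at 37.5, 50.3 and 34.0 CPM in saline and 10.0, 8.41 and 7.86 CPM in OTV animals. EFCAB5, which overlaps SSH2, was higher in OTV than in ASO animals by 2.56 on the log2 scale, and CFAP43 by 1.69. EFCAB5 was at 30.2, 22.1 and 15.1 CPM in saline and 7.64, 6.73 and 10.1 CPM in ASO animals. In OTV animals EFCAB5 was at 37.1, 36.8 and 56.5 CPM. CFAP43 in OTV was at 98.1, 110 and 123 CPM, near its saline level.

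**Figure D4:**
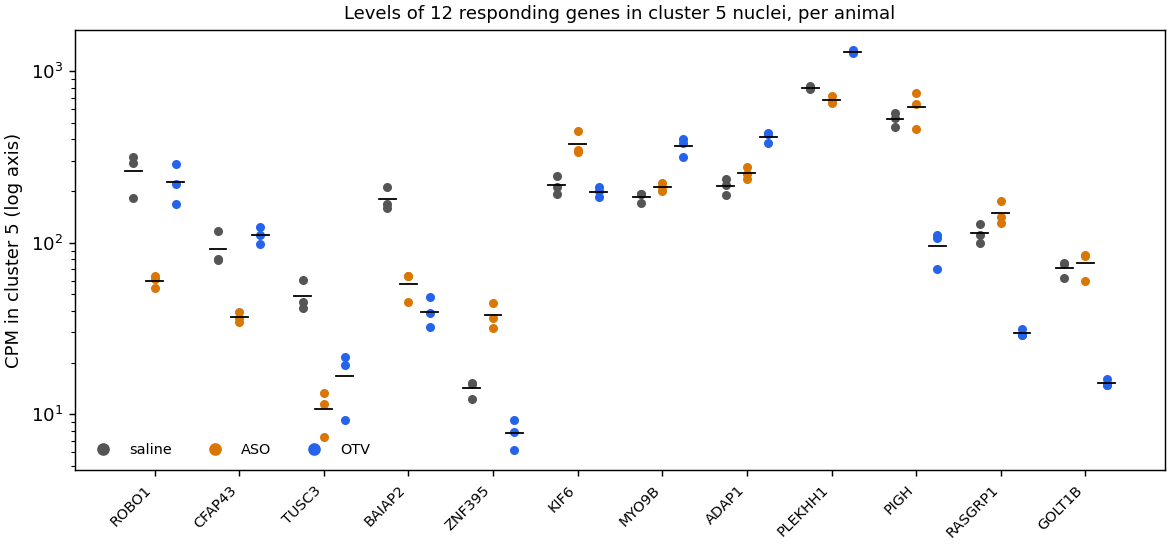
CPM in cluster 5 on a log axis for 12 of the named genes, with 1 point per animal and a bar at the mean of each group. ROBO1 at 54.6 to 64.2 CPM in ASO animals lies below both other groups, and GOLT1B at 14.7 to 16.1 CPM in OTV animals lies below both other groups.

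Transcripts of the mitochondrial genome moved with the groups. These RNAs are made in mitochondria and not in the nucleus. All 13 were lower in ASO than in saline and higher in OTV than in saline in sign, of which by edgeR 7 fell with ASO (beside 0.229% of all features), 8 rose with OTV (beside 4.76%) and 12 were higher in OTV than in ASO (beside 8.81%). With ASO all 13 had an unadjusted p under 0.05 and DESeq2 called 11. In sums thinned to equal totals, 6 could be tested, with 0, 2 and 6 calls in these contrasts. ND5, a subunit of respiratory complex I, was at 6.86, 2.34 and 3.78 CPM in saline, 0, 0.0874 and 0 CPM in ASO and 32.9, 33.1 and 35.4 CPM in OTV animals. CYTB, a subunit of complex III, had 351 UMIs in the saline group and 0 in the ASO group. The 95% counting interval of this ratio of group sums had a lower bound of 141. Against a floor of 3 UMIs over the group the ratio was 174.7. CYTB was at 40.0, 13.7 and 3.78 CPM in the saline animals and was not among the 7 calls by edgeR (adjusted p = 0.0957). COX1, a subunit of complex IV, fell by 2.97 with ASO (adjusted p = 0.0151) and rose by 1.98 with OTV (adjusted p = 0.00334). The ASO call of COX1 was lost without ASO replicate 1 or 2. Levels within the saline group also varied: COX3 was at 55.5, 33.3 and 3.78 CPM, with the lowest in saline replicate 3. In that animal 3.78 CPM stands for 1 UMI, for COX3 as for ND5 and CYTB.

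Of 37 cytosolic ribosomal protein genes tested, 36 had a positive log2 fold change with ASO and 34 a negative one with OTV against saline. With ASO, edgeR called 0 of 37 against saline, beside 0.332% of all features. At an unadjusted p under 0.05 there were 2, and DESeq2 called 0. The median log2 fold change with ASO was 0.43, beside 0.03 over all features. With OTV 7 of 37 fell against saline, beside 7.38% of all features (median -0.86, beside 0.02). Without saline replicate 3 there were 12, and in thinned sums 10 could be tested with 0 calls, RPS6 among them. Against ASO 21 fell with OTV, beside 11.9% of all features, with a median of -1.26, and in thinned sums 3 of 10 fell. RPS6, a protein of the small subunit, was at 115, 107 and 60.5 CPM in saline, 124, 123 and 172 CPM in ASO and 39.6, 35.7 and 26.4 CPM in OTV animals. It fell by 1.49 with OTV (SE 0.24, adjusted p = 0.00204), and RPLP0 of the large subunit fell by 1.61 (adjusted p = 0.00376). Many ribosomal protein genes have near-identical pseudogenes, so their counts are uncertain. The mitochondrial and ribosomal shifts stand beside all the responses above, and their part in them was not tested.

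With ASO, edgeR called 0 of 18 myelin genes (median 0.22), beside 0.332% of all features. At an unadjusted p under 0.05 there were 2, and DESeq2 called 0. With OTV 4 rose and 2 fell against saline, beside 4.76% and 7.38% of all features, with a median of 0.21 beside 0.02. In thinned sums 0 rose and 2 fell of the same number tested. CNTN2, an adhesion protein beside the node of Ranvier, was at 290, 328 and 299 CPM in saline and 400, 478 and 460 CPM in OTV animals. The OTV animals lay above all saline animals, and CNTN2 rose by 0.62 (SE 0.12, adjusted p = 0.00491), a call that was lost in thinned sums alone. HAPLN2 was at 769, 871 and 605 CPM in saline and 1215, 1091 and 1813 CPM in OTV animals, a rise of 0.94 (adjusted p = 0.0170) that did not pass without saline replicate 1, saline replicate 3 or OTV replicate 3, or in thinned sums. CLDN11, the tight junction protein of myelin, was at 491, 360 and 397 CPM in saline and 254, 242 and 220 CPM in OTV animals, a fall of 0.73 (adjusted p = 0.0194). That call was lost without saline replicate 1, OTV replicate 2 or OTV replicate 3.

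NFASC, an axonal and glial adhesion gene, and MYRF, the transcription factor that switches on myelin genes, rose by 0.51 and 0.63. Both calls were lost in thinned sums and with the 6 compared animals alone, that of NFASC also with no filter on low counts and without high doublet scores. The NFASC call was lost without saline replicate 1 or 2, ASO replicate 1 or 2, or OTV replicate 1 or 2, and the MYRF call without saline replicate 1 or 2 or OTV replicate 2 or 3. OPALIN was at 199, 278 and 526 CPM in saline, 221, 89.9 and 285 CPM in ASO and 39.0, 89.4 and 46.8 CPM in OTV animals. It fell by 2.39 with OTV (SE 0.56, adjusted p = 0.0326), a call lost with no filter on low counts and without saline replicate 2, saline replicate 3, ASO replicate 1, OTV replicate 1 or OTV replicate 3. Of the OPALIN type, PLXDC2, a membrane receptor, rose with OTV by 1.37 (adjusted p = 0.0271) and MYRIP, an adaptor of vesicle transport, fell by 1.42 (adjusted p = 0.0192). With OPALIN this made 3 calls of 7, beside 12.1% of all features. The PLXDC2 call was lost without saline replicate 1 or 2 or OTV replicate 1 or 2, and the MYRIP call without saline replicate 1 or 2 or OTV replicate 3. Cholesterol synthesis genes, which supply a lipid of myelin, gave 0 calls of 19 by edgeR with either compound against saline. Over all features the shares were 0.332% with ASO and 12.1% with OTV. At an unadjusted p under 0.05 there were 2 with ASO and 3 with OTV, and DESeq2 called 0 and 1.

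With ASO, edgeR and DESeq2 called 0 of 11 heat shock and immediate early genes, 0 of 5 p53 targets, 0 of 7 interferon response genes and 0 of 7 reactive oligodendrocyte genes. Over all features edgeR called 0.332% with ASO, so 0 calls in lists this short say little. At an unadjusted p under 0.05 there were 2 heat shock and immediate early genes and 0 in the other lists. With OTV against saline, 3, 1 and 2 genes of the interferon, p53 and heat shock lists fell, of 7, 5 and 11 tested, and 0 rose, where 7.38% of all features fell. In thinned sums 1, 2 and 7 of these genes could be tested, with 0 calls. In the reactive list B2M, the light chain of MHC class I, fell by 1.17 (adjusted p = 0.0248) and STAT3, a transcription factor, rose by 0.57 (adjusted p = 0.0299). Both calls were lost in thinned sums and with the 6 compared animals alone, and that of STAT3 also with no filter on low counts and by DESeq2. The B2M call was lost without saline replicate 1 or 2 or OTV replicate 1 or 2, and the STAT3 call without saline replicate 1 or 3 or OTV replicate 2 or 3. IFIT3 and IFI6, which are induced by interferon, were among the 3 of 7 interferon genes that fell, by 1.39 (adjusted p = 0.0116) and 2.08 (adjusted p = 0.0183). IFIT3 was at 13.9, 18.7 and 15.1 CPM in saline and 4.81, 8.41 and 5.00 CPM in OTV animals, so the groups did not overlap. DNAJA1, a co-chaperone, was at 78.6, 92.9 and 87.0 CPM in saline and 51.9, 32.1 and 35.02 CPM in OTV animals, a fall of 1.02 (adjusted p = 0.00985). DNAJA1 and BAG3 were the 2 of 11 heat shock genes that fell. TP53I3, a quinone oxidoreductase induced by p53, fell by 2.38 (adjusted p = 0.00127) and kept its call in every alternative that tested it. The DNAJA1 call was lost in thinned sums. The calls of DNAJA1 and IFIT3 were lost without saline replicate 2, and those of BAG3 and IFI6 without saline replicate 1 or OTV replicate 2, for BAG3 also without OTV replicate 3.

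Of 23 synaptic genes tested, edgeR and DESeq2 each called 1 with ASO, beside 0.332% of all features by edgeR, and with OTV against saline edgeR called 2 and DESeq2 3, beside 12.1% of all features by edgeR. Of these 2, 1 rose and 1 fell, with a list median of -0.17, while without saline replicate 3 it was 4 and 1, with a median of 0.39. NRXN2, a presynaptic adhesion protein, was at 123, 109 and 98.3 CPM in saline and 165, 224 and 244 CPM in OTV animals. NRXN2 rose by 0.98 with OTV (adjusted p = 0.00243). Of the neuron markers edgeR and DESeq2 called 0 of 10 with ASO, where 2 had an unadjusted p under 0.05, and 1, GAD1, with OTV against saline, beside 12.1% of all features. Their summed levels in cluster 5 overlapped between the groups, and their part in the synaptic values was not tested.

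Some markers of other cell types also passed the test with OTV, each of those named next at no more than 79.4 CPM of cluster 5 in any animal (LUZP2 in saline replicate 3). Against saline, VCAN of the 6 precursor markers tested, FGFR3 of 10 astrocyte markers and ACTA2 of 2 mural markers rose, and SKAP1 of 3 T cell markers fell, beside 4.76% higher and 7.38% lower over all features. Against ASO, VCAN, TNR and LUZP2 rose and MEGF11 fell among the precursor markers, and 2 of 8 myeloid markers rose, APBB1IP and INPP5D, beside 8.81% higher and 11.9% lower over all features. FGFR3 and ACTA2 rose and SKAP1 fell in that contrast too, which shares the OTV animals. Of these calls, those of SKAP1 held in every alternative that tested them and each of the others was lost without at least 1 of the animals: for TNR these were ASO replicate 2 and OTV replicate 3, and for ACTA2 OTV replicate 3 against ASO and, against saline, also saline replicates 1 and 2. Those of LUZP2, MEGF11 and both myeloid genes were lost without any 1 ASO or OTV animal, and the myeloid ones also without saline replicate 2, for APBB1IP also without saline replicate 1. Against ASO, VCAN was lost without ASO replicate 1 or 2 or OTV replicate 1 or 2, and FGFR3 without ASO replicate 1 or 2 or OTV replicate 2 or 3. Against saline, VCAN was lost without saline replicate 1 or 2, ASO replicate 1 or OTV replicate 1 or 2, and FGFR3 without saline replicate 1 or 2 or OTV replicate 2 or 3. The calls of VCAN and FGFR3 against saline and of both myeloid genes were lost with DESeq2. The mural markers summed to between 43.7 and 70.8 CPM in OTV, 22.7 and 37.8 CPM in saline and 30.1 and 36.7 CPM in ASO animals, so the OTV animals lay above the others. T cell markers summed to between 20.0 and 28.7 CPM in OTV, 38.5 and 42.1 CPM in saline and 30.1 and 57.4 CPM in ASO animals, with the OTV animals below the others. The summed precursor, astrocyte and myeloid markers overlapped between the groups. The part of these markers in the OTV responses was not tested.

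The genes that set cluster 5 apart were also compared between the groups. They were chosen from these same sums, and the clusters were made from these same genes. Their levels in cluster 5 are therefore bound by that choice, and the values and calls below are a description. Of the 15 higher genes, edgeR and DESeq2 called 0 with ASO, beside 0.332% of all features by edgeR, and 3 had an unadjusted p under 0.05. With OTV against saline the 15 had a median log2 fold change of 0.63, beside 0.02 over all features. By edgeR 2 rose in that contrast, beside 4.76% of all features. These 2 were PLEKHA6, which rose by 1.32 (adjusted p = 0.00493), and SDK2, which rose by 1.199 (adjusted p = 0.0268). The SDK2 call was lost with no filter on low counts and without saline replicate 2 or 3 or OTV replicate 1 or 3. Of the 15 lower genes 14 could be tested, and edgeR called 0 with either compound against saline, beside 0.332% of all features with ASO and 12.1% with OTV. With OTV 0 had an unadjusted p under 0.05 and DESeq2 called 0, while with ASO the counts were 6 and 4. Against ASO 5 of them were higher in OTV, beside 8.81% of all features, with CNTN1 at 2.26 (SE 0.34, adjusted p = 0.00134) and LRFN5 at 3.32 (SE 0.62, adjusted p = 0.00559) ahead of PCDH7, ERC2 and EYA1. The ERC2 call was lost in thinned sums and without ASO replicate 2, the PCDH7 call with no filter on low counts and without ASO replicate 1 or 2 or OTV replicate 1 or 2, and the EYA1 call without high doublet scores and without saline replicate 1, ASO replicate 1, ASO replicate 2 or any 1 OTV animal. The median of the 14 genes with ASO against saline was -1.05.

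Whether cluster 5 responded differently from the other oligodendrocyte nuclei was tested directly, with the animal as a block and 15889 features. The differences in response passed for 40 features with ASO against saline (0.252%; 0.0818% higher, 0.17% lower in cluster 5), for 18 with OTV against saline (0.113%; 0.0566% higher, 0.0566% lower) and for 96 with OTV against ASO (0.604%; 0.34% higher, 0.264% lower). Without saline replicate 3 the counts were 46, 23 and 118. The count for ASO was 21 without saline replicate 2 and 17 without ASO replicate 1, that for OTV against saline was 9 without either of saline replicates 1 and 2, and that for OTV against ASO was 42 without OTV replicate 1 and 51 without OTV replicate 2. The other oligodendrocyte nuclei are a mixture of 6 clusters, and cluster membership was set on the same counts. The mixture differed between animals: cluster 8 held 24.6% of these nuclei in OTV replicate 1, 0.825% and 0.0195% in the other OTV animals and between 1.56% and 4.02% in the saline and ASO animals. Cluster 0 held 9.73% in OTV replicate 1 and between 27.7% and 37.4% in the other 8 animals. Without OTV replicate 1 the counts of differing responses were 45, 13 and 42. The part of the makeup within the other animals was not tested.

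LRRTM3, a postsynaptic adhesion protein, was at 433, 466 and 529 CPM in cluster 5 of the saline animals, 630, 443 and 801 CPM in ASO and 85.6, 103 and 58.6 CPM in OTV animals. In the other nuclei LRRTM3 was at 533, 546 and 489 CPM in saline and 188, 212 and 144 CPM in OTV animals. The OTV animals were low in both classes and lower in cluster 5, with log2 fold changes of -2.44 and -1.48 and a difference of -0.93 (SE 0.10, adjusted p = 3.43e-07). CTNNA3, in which LRRTM3 lies, had a log2 fold change of 0.17 in cluster 5 (adjusted p = 0.329).

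IL1RAPL1, an adhesion protein of the interleukin receptor family, was at 3590, 3549 and 5117 CPM in cluster 5 of saline and 1939, 2292 and 2005 CPM in OTV animals. In the other nuclei it was at 5267, 5533 and 6006 CPM and 4233, 4676 and 3989 CPM. The fall was larger in cluster 5 by 0.52 on the log2 scale, a difference of -0.52 (SE 0.07, adjusted p = 0.000221). ANGPTL2, a secreted angiopoietin-like protein whose gene overlaps RALGPS1, was at 79.9, 104 and 136 CPM in cluster 5 of saline and 24.0, 27.3 and 11.1 CPM in OTV animals. Its difference in response was -0.86 (SE 0.14, adjusted p = 0.00197). These 3 genes kept their calls with DESeq2 size factors, with no filter on low counts and without any 1 animal. Thinned sums, removal of high doublet scores and DESeq2's Wald test were not run for differences in response.

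BTNL8, a butyrophilin-like membrane protein, was at 6.86, 24.8 and 11.3 CPM in cluster 5 of saline and 8.46, 8.39 and 7.35 CPM in ASO animals. In the other nuclei it was at 7.01, 20.4 and 10.2 CPM in saline and 31.3, 31.0 and 52.5 CPM in ASO animals. Only the other nuclei of the ASO animals were high, and the difference in response was -2.22 (SE 0.21, adjusted p = 2.84e-08). ADAMTS17, a secreted metalloprotease, was at 24.9, 9.81 and 7.56 CPM in cluster 5 of saline and 2.28, 1.14 and 3.21 CPM in ASO animals, a difference in response of -2.12 (SE 0.27, adjusted p = 3.87e-05). FGD3, an exchange factor for the GTPase Cdc42, was at 4.07, 1.14 and 1.38 CPM in cluster 5 of ASO and 159, 82.5 and 150 CPM in OTV animals. In the other nuclei FGD3 reached 45.1, 23.3 and 41.3 CPM in OTV animals, and its difference for OTV against ASO was 2.50 (SE 0.26, adjusted p = 1.79e-06).

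**Figure D5:**
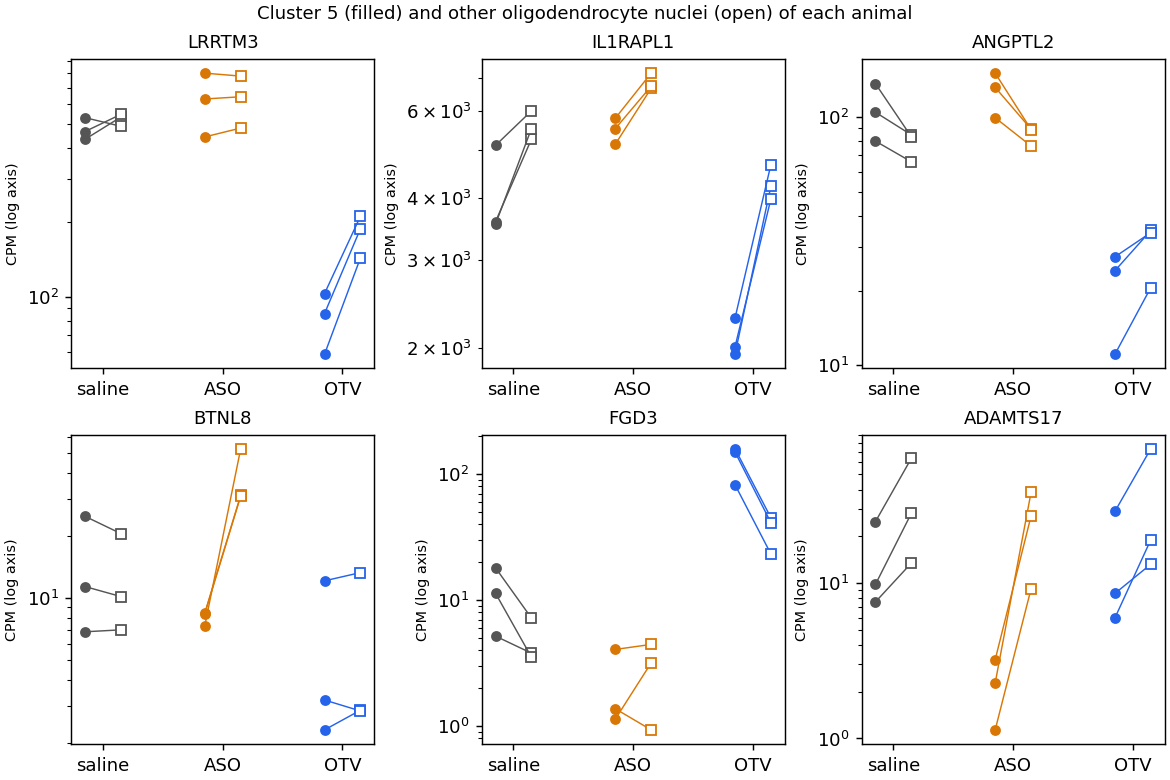
CPM on log axes in cluster 5 (filled circles) and in the other oligodendrocyte nuclei (open squares) for 6 genes whose responses differed, with a line joining the values of 1 animal. LRRTM3 lies at 58.6 to 103 CPM in cluster 5 and 144 to 212 CPM in the other nuclei of the OTV animals, while BTNL8 lies at 7.35 to 8.46 CPM in cluster 5 and 31.0 to 52.5 CPM in the other nuclei of the ASO animals.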

How the data were processed

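Raw UMI counts per nucleus and the table of nuclei, with cell type, cluster and a doublet score, are used as the authors deposited them. The doublet score, deposited by the authors, served only to leave out high-scoring nuclei in a repeat. The submitters' processing notes name Cell Ranger 6.1.2, Seurat 4 and GRCh38.p13. The feature identifiers are those of the macaque, so the genome build behind the counts is not settled. Counts were summed per animal over cluster 5 and over the other oligodendrocyte nuclei, with at least 20 nuclei per sum, and totals ran from 264430 to 11443215 UMIs in cluster 5. The matrix holds 29128 features, 14893 with a gene symbol. Sums were fitted with edgeR 4.0.16 in R 4.3.3 (TMM, filterByExpr, robust quasi-likelihood test), all 9 animals together. P values were adjusted with Benjamini-Hochberg over all features tested, with calls at adjusted p under 0.05. Standard errors come from the fold change and its F statistic. The interaction fit holds both sums of each animal with the animal as a block. DESeq2 1.42.0 was an alternative. The procedure was tested on simulated data. The labels give each sample its own animal, and replicate numbers follow accession order.

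Named genes have symbols. They are MALAT1, TFRC and LTBP3, members of the lists, and the 15 genes per direction with the largest least change in any animal. To these come up to 8 genes per direction and contrast by adjusted p without overlap, and up to 4 for the interaction. NOX4 and TMEM51 stand just outside the threshold and are given for that reason, and CTNNA3, which holds LRRTM3, was added after its values were seen. The members and all lists were chosen with earlier results of these data known. Gene overlaps come from RefSeq's annotation of T2T-MFA8v1.1, used for names and neighbours only. The text gives overlaps only where a partner gene is named. Other named genes overlap genes too, among them IL1RAPL1 (6 genes) and BAIAP2 and TUSC3 (3 each). Some list members and named genes are not reported here, though they stayed in the fits and counts.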

Additional observations from a re-analysis of the deposited data

Results flagged for a closer look

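Each value below is the log2 fold change in cluster 5 minus that in the other oligodendrocyte nuclei, and each passed edgeR's interaction test with Benjamini-Hochberg adjustment. For ASO against saline the higher ones were ODAD2 (2.54), SLC22A15 (0.56), RAG1 (1.94) and MAF (1.80). ODAD2, RAG1 and MAF had at most 11.3 CPM in cluster 5 of any saline or ASO animal. The lower ones were BTNL8 (-2.22), ADAMTS17 (-2.12), GNA12 (-0.60) and CREB3L2 (-0.65). For GNA12, a G protein subunit, cluster 5 was at 113, 95.7 and 125 CPM in saline and 125, 114 and 112 CPM in ASO animals, while the other nuclei were at 116, 97.6 and 117 CPM and 218, 162 and 164 CPM. The calls of ODAD2 and MAF were lost without saline replicate 2 or ASO replicate 1, that of RAG1 without saline replicate 2 or ASO replicate 2, and those of SLC22A15 and GNA12 without ASO replicate 1.

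For OTV against saline the higher ones were ISM1 (2.02), SLC26A5 (1.10) and FCHSD2 (1.29). The lower ones were LRRTM3 (-0.93), IL1RAPL1 (-0.52), ANGPTL2 (-0.86) and BCAT1 (-0.57). ISM1 overlaps TASP1 and FCHSD2 overlaps ATG16L2 in the RefSeq annotation. FCHSD2 and BCAT1 are among the genes that set cluster 5 apart, which were chosen from these same sums. The call of ISM1 was lost without saline replicate 1, that of SLC26A5 without saline replicate 1, saline replicate 2 or OTV replicate 1, that of FCHSD2 without saline replicate 1, saline replicate 2 or OTV replicate 2, and that of BCAT1 without saline replicate 1, saline replicate 2, OTV replicate 2 or OTV replicate 3.

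For OTV against ASO the higher ones were CHST11 (1.69), FGD3 (2.50), ISM1 (1.84) and ADAMTS17 (2.24), and the lower ones LRRTM3 (-1.09), IL1RAPL1 (-0.71), ANGPTL2 (-1.08) and LRRC3B (-3.78). LRRC3B had 5 UMIs in cluster 5 of the OTV group and 135 in that of the ASO group. CHST11, a chondroitin sulfotransferase, was at 6.34, 10.5 and 14.2 CPM in cluster 5 of ASO and 12.5, 25.2 and 15.7 CPM in OTV animals, while the other nuclei were at 66.5, 88.8 and 144 CPM and 35.5, 74.3 and 46.8 CPM. These 8 calls were kept with DESeq2 size factors, with no filter on low counts and without any 1 animal, the only alternatives run for the interaction.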

How the results depend on the processing

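No paired analysis was possible because the replicate numbers follow accession order and the labels share none between groups, so animals of different groups could not be paired. The animal was a block only within the interaction fit. Calls for ASO against saline numbered 119 with no filter on low counts, 182 with DESeq2's Wald test and 19 in thinned sums, and leaving out 1 animal gave 10 to 53, against 45. Those for OTV against saline numbered 255 in thinned sums and 875 to 1647 without 1 animal, against 1646. Those for OTV against ASO numbered 417 in thinned sums and 1844 to 3073 without 1 animal, against 2805. With no filter, the interaction counts were 166, 88 and 269, and leaving out 1 animal gave 17 to 52, 9 to 26 and 42 to 142. Thinning leaves every sum at 264430 UMIs, the total of saline replicate 3. Of features at least 2-fold higher in every animal, 2 passed against the unweighted mean of the other clusters, and leaving out 1 animal gave 31 to 47 (higher) and 48 to 71 (lower). MALAT1's exact p over the groups lay between 0.00357 and 0.0107, and that of its log2 ratio to the other oligodendrocyte nuclei between 0.146 and 0.504, without 1 animal.

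Among single genes, the values that changed sign were small and uncalled. LTBP3 with ASO (-0.0422) became 0.0898 without saline replicate 1, with -0.11 to 0.0898 without 1 animal, and TFRC for OTV against ASO (0.16) became -0.0550 without high doublet scores. Interaction values without 1 animal ran from -0.0587 to 0.13 for LTBP3 with ASO (-0.0398 without ASO replicate 3), from -0.00127 to 0.16 for LTBP3 in OTV against ASO, and from -0.000313 to 0.19 for TFRC in OTV against saline. That of MALAT1 for OTV against ASO ran from -0.0968 to 0.0249, with 0.0201 without ASO replicate 2 and 0.00752 without OTV replicate 3. Over the gene lists, the median for OTV against saline went from 0.67 to -0.41 for precursor markers in thinned sums, with 2 of 6 genes tested, and from -0.40 to 0.04 for neuron markers without saline replicate 3. The causes were not tested. Saline replicate 3, with 55 nuclei, limits the depth of the saline group for low genes.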

Other observations

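Many of the features that fell with OTV in cluster 5 carry an Ensembl identifier without a gene symbol. Against saline these were 557 of the 1001 that fell, or 55.6%, beside 17.1% of the 645 that rose and 26.2% of all 13558 tested. Against ASO the shares were 48.2% of those that fell and 18.7% of those that rose. Of the 423 fallen features found in the reference annotation, 57.9% overlapped another gene, beside 48.2% of the risen ones and 46.5% of all tested features found there. Against ASO the overlapping shares were 50.1% of the fallen and 51.7% of the risen features. These shares are given as a description, with no test.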
